A study of Mus musculus with 4 samples.

Results

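The genes described here are 9 regulators of the sterol response and carriers of cholesterol, chosen by symbol among the 39179 Ensembl genes of the count files. They are *Srebf1* and *Srebf2*, which encode the SREBP transcription factors, *Scap*, *Insig1* and *Insig2*, which hold or release the SREBPs, *Mylip*, a ubiquitin ligase that limits lipoprotein uptake, *Abca1* and *Abcg1*, which export sterol from the cell, and *Npc1*, which exports it from the lysosome. Of these 9 genes, 8 were expressed above the filter on low counts and were tested among 11483 genes. The filter removed genes with less than 1 CPM (counts scaled to a common library total) in at least 3 of the 4 samples.

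The samples were 2 libraries of parental B16F1 cells, a mouse melanoma cell line, which are called control here, and 2 libraries of tumor repopulating cells (TRCs), which grew from single B16F1 cells into spheroids in soft 3D fibrin gels. Both groups come from the same cell line, with no added agent or engineered allele named in the labels, and both carry the replicate numbers 1 and 3. The authors describe parental cells as traditionally grown on rigid, flat culture dishes. Culture in fibrin, softness of the gel, growth as spheroids, time in the gel and selection of the surviving cells cannot be told apart. The TRCs differ from the control in all of these. The sources used here do not say whether the libraries came from separate cultures, so the p-values measure the spread between these libraries, which may be technical. In bulk RNA, fewer cells that express a gene and less RNA of that gene per cell cannot be told apart.

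Cholesterol in the membrane of the endoplasmic reticulum is sensed by SCAP, which escorts the SREBPs to the Golgi when sterol is low. The INSIG proteins hold SCAP and its SREBP in place when sterol is high. In the Golgi the proteases encoded by *Mbtps1* and *Mbtps2* release the active part of an SREBP, which raises transcription of genes for sterol synthesis and uptake, and of *Srebf2* and *Insig1* themselves. SREBP-2 is best known for cholesterol genes and the SREBP-1c form for fatty acid genes. The opposite arm works through the LXR nuclear receptors, which respond to oxysterols and raise *Abca1*, *Abcg1* and *Mylip*. Messenger RNA levels do not report on the cleavage of the SREBP proteins, which is the regulated step.

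Promoter sequences (RefSeq, GRCm38.p6, 250 bases before each annotated start) were found for 7 of the 9 members. They were searched on both strands for TCACCCC, the core of a sterol regulatory element, for CCAAT, the box bound by NF-Y, a partner of the SREBPs, and for CACGTG, an E-box. The motifs do not overlap each other in the stretches shown. The stretches of *Srebf2* and *Insig1* are shown because these are the SREBP pathway members that rose in TRCs and that are known as targets of the SREBPs, and capitals mark the matches on either strand.
Srebf2 (chr15:82147097-82147148, plus strand): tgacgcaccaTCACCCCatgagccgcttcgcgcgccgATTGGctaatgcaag
Insig1 (chr5:28071186-28071326, plus strand): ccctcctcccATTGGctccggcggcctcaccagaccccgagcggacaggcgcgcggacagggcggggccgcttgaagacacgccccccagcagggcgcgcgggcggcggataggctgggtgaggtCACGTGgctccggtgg
The *Srebf2* stretch holds the sterol element core and a CCAAT box (read on the plus strand as its reverse complement). The *Insig1* stretch holds a CCAAT box and an E-box, and no match to the sterol element core lies in its 250 bases. Of all 32851 promoters in the table, 4.31% hold TCACCCC, 33.8% hold CCAAT and 6.02% hold CACGTG, and the shares among the 11457 promoters of genes tested are 4.5%, 35.3% and 8.61%. *Insig2* has 3 annotated starts, of which 1 has a TCACCCC match and another has 3 CCAAT matches. *Srebf1* also has 3 annotated starts, with a CCAAT match at 2 of them. Members that were not called also held matches, with 3 CCAAT matches in *Mylip* and a CACGTG match in *Abca1* and at 1 of the annotated starts of *Scap*. The counts are per gene, so the starts of *Srebf1* that give the SREBP-1a and SREBP-1c forms were not separated. These matches are letters in a window and not measured binding.

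*Srebf2* also carries a microRNA gene in an intron. Its product miR-33-5p is known to repress *Abca1*, and it is shown because it ties an SREBP gene to an efflux gene among the members. Capitals mark the seed, bases 2 to 8 of the microRNA, and the matching letters CAATGCA in the *Abca1* transcript.
miR-33-5p (chr15:82198127-82198147, plus strand, GRCm38.p6): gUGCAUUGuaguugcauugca
Abca1 3′ end (chr4:53033783-53033812, minus strand, GRCm38): tattCAATGCAATGCActtCAATGCAacga
This stretch starts 131 bases after the stop codon and holds 3 seed matches, of which the first pair overlap. Seed matches stood in the 3′ untranslated region of *Abca1* (3 matches) and *Abcg1* (2 matches) and in none of the other 7 members. Of 10747 tested genes with such a region, 6.88% had at least 1 match and 0.707% had 2 or more. The libraries were made from polyA RNA and do not measure mature microRNAs, and the microRNA gene itself had 0, 0, 0 and 1 counts.

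*Srebf2*, *Insig1* and *Insig2* rose in TRCs, and the other 5 tested members did not pass the test in either direction. By edgeR's exact test at an FDR under 0.05, which called 15.9% of all genes tested in either direction, 3 of 8 members were higher in TRCs, where 8.81% of all genes tested were called higher, and 0 were lower, where 7.05% were. For 4 of the 8 members the lower TRC library exceeded the higher control library, against 30.2% of all genes tested. Over the 8 members the median difference was 0.40 on the log2 scale, against 0.0034 over all genes tested. The members are few, and they were named for their role with earlier results of these data known. These shares therefore describe the members and are not a test. Single values below are TMM-scaled CPM, with the mean ± SD over n = 2 libraries, and the SE of a log2 fold change comes from DESeq2.

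**Figure D1:**
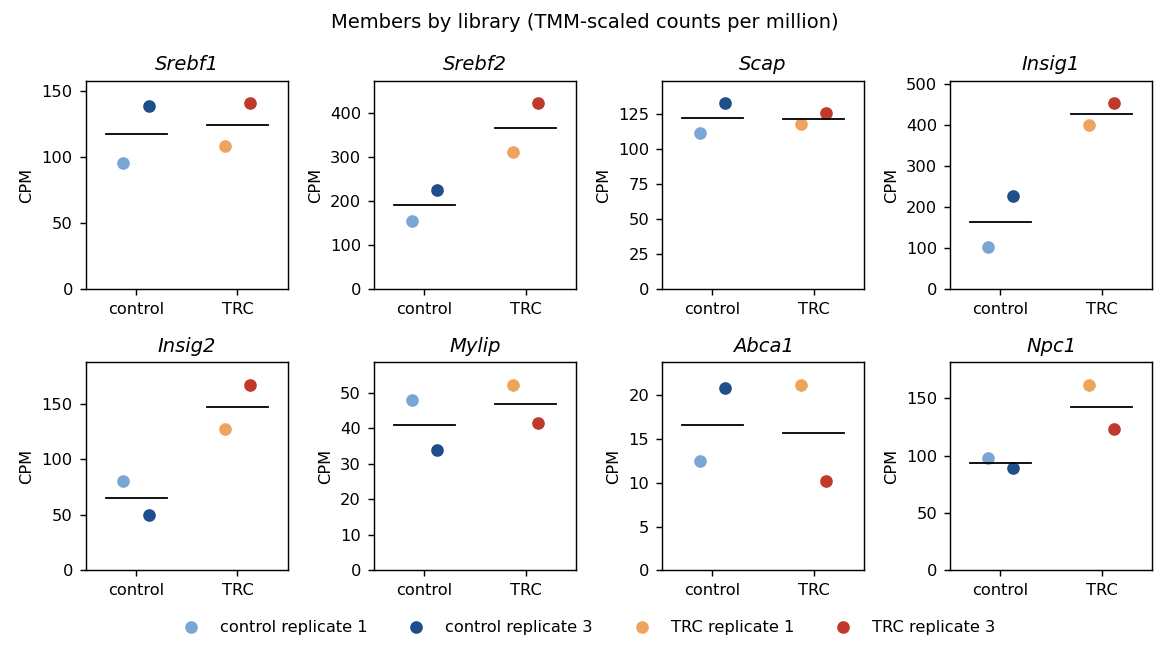
Level of each tested member (CPM, linear axis from 0) in the 2 control and the 2 TRC libraries, with a point for each library and a line at the group mean. Both TRC points lie above both control points for Srebf2, Insig1, Insig2 and Npc1, and the groups overlap for the other 4 genes.

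The SREBP genes differed from each other. *Srebf2* (ENSMUSG00000022463, chromosome 15 from 82147181 to 82205379, plus strand) had 154 and 226 CPM in control replicates 1 and 3 and 312 and 423 CPM in TRC replicates 1 and 3. Both TRC libraries were above both controls, and the replicate 3 library was the higher of its group in control and TRC alike. It rose from 190 ± 50.7 to 367 ± 78.7 CPM (SD, n = 2, log2 fold change 0.95, SE 0.26, FDR = 0.00531 by edgeR's exact test). The call was lost without TRC replicate 3 (log2 fold change 0.71, FDR = 0.161) and without control replicate 1 (0.70, FDR = 0.106), and the FDR was 0.0518 in edgeR's quasi-likelihood test and 0.0318 with the replicate block.

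*Srebf1* (ENSMUSG00000020538, chromosome 11 from 60199089 to 60222581, minus strand) had 95.8 and 139 CPM in control replicates 1 and 3 and 108 and 141 CPM in TRC replicates 1 and 3. The groups overlapped, and the difference between libraries of the same group was larger than that between the group means. Its log2 fold change was 0.087 (SE 0.26, FDR = 0.867 by the exact test), and its sign changed without control replicate 1 (−0.16) or without TRC replicate 3 (−0.12). *Srebf1* shares 109 bases of exon with *Rai1* on the opposite strand, and the strand setting of the counting is not given in the sources used here.

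The log2 ratio of *Srebf1* to *Srebf2* counts within a library, which does not depend on the scaling between libraries, was −0.69 in control 1 and −0.71 in control 3, compared with −1.53 and −1.59 in TRC replicates 1 and 3. The ratio was thus lower in both TRC libraries by 0.86, while libraries of the same group differed by far less (SD 0.014 in control and 0.042 in TRCs, n = 2). The exact permutation test over libraries, two-sided, gave p = 0.333, which is the smallest p that 2 against 2 libraries allow. Per length of exon, the log2 ratio was −0.34 and −0.36 in the controls and −1.18 and −1.24 in the TRCs, so *Srebf2* was the more abundant message in each library.

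*Scap*, the sterol sensor and escort, had 111 and 132 CPM in control replicates 1 and 3 and 117 and 125 CPM in TRC replicates 1 and 3. Both TRC values lay between the control values. Its log2 fold change was −0.0043 (SE 0.21, FDR = 0.995 by the exact test), the smallest in size among the tested members.

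Both INSIG genes rose, and the higher control library was replicate 3 for *Insig1* and replicate 1 for *Insig2*. *Insig1* (ENSMUSG00000045294, chromosome 5 from 28071363 to 28078662, plus strand) had 102 and 226 CPM in control replicates 1 and 3 and 400 and 452 CPM in TRC replicates 1 and 3. The TRC libraries were close to each other, while the controls differed by 1.15 on the log2 scale. It rose from 164 ± 87.9 to 426 ± 36.8 CPM (SD, n = 2, log2 fold change 1.38, SE 0.34, FDR = 0.000707 by the exact test), the largest of the members. *Insig1* kept its call without each library in turn, with log2 fold changes from 0.91 without control replicate 1 to 2.06 without control replicate 3. Its FDR was 0.0451 in edgeR's quasi-likelihood test and 0.0338 with the replicate block.

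*Insig2* (ENSMUSG00000003721, chromosome 1 from 121304353 to 121332589, minus strand) had 80.5 and 50.0 CPM in control replicates 1 and 3 and 127 and 167 CPM in TRC replicates 1 and 3. Both TRC libraries were above both controls, and here control replicate 3 was the lower control. It rose from 65.2 ± 21.6 to 147 ± 28.1 CPM (SD, n = 2, log2 fold change 1.17, SE 0.28, FDR = 0.000484 by the exact test). The FDR was 0.0572 with the replicate block, 0.0511 without control replicate 3 and 0.0544 without TRC replicate 3.

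The log2 ratio of *Insig2* to *Insig1* counts was −0.34 in control 1 and −2.18 in control 3, compared with −1.65 and −1.44 in TRC replicates 1 and 3. The TRC values lay between the control values, with p = 1.0 in the two-sided exact permutation test, and the mean difference of −0.29 became 0.63 without control replicate 1 and −1.21 without control replicate 3. A change in the balance of the INSIG messages was therefore not resolved by these libraries.

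*Mylip*, the ubiquitin ligase that limits lipoprotein uptake, had 47.9 and 33.9 CPM in control replicates 1 and 3 and 52.3 and 41.4 CPM in TRC replicates 1 and 3. The groups overlapped, with replicate 1 the higher library of both groups. Its log2 fold change was 0.20 (SE 0.27, FDR = 0.676 by the exact test).

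*Abca1*, the pump that loads cholesterol onto apolipoprotein A-I, had 12.4 and 20.8 CPM in control replicates 1 and 3 and 21.1 and 10.2 CPM in TRC replicates 1 and 3. The TRC libraries differed by 1.01 on the log2 scale and enclosed both controls. Its log2 fold change was −0.081 (SE 0.41, FDR = 0.926 by the exact test) and was 0.34 without control replicate 3 or without TRC replicate 3. *Abcg1*, which passes cholesterol to HDL, had 0 counts in control 1, 1 in control 3, 4 in TRC replicate 1 and 0 in TRC replicate 3. A total of 3 counts, taken as the smallest detectable share, corresponds to 0.0675 to 0.0850 CPM in these libraries (counting error only), so *Abcg1* stood at about this floor and no fold change is given.

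*Npc1*, the lysosomal membrane protein that hands LDL-derived cholesterol to the rest of the cell, had 97.8 and 89.0 CPM in control replicates 1 and 3 and 162 and 123 CPM in TRC replicates 1 and 3. Both TRC libraries lay above both controls. Its log2 fold change was 0.61 (SE 0.22) with FDR = 0.0601 by the exact test, and DESeq2's Wald test gave an adjusted p of 0.0386 for n = 2 libraries per group. *Npc1* shares 511 bases of exon with *Rmc1* on the opposite strand, which had 887 to 1101 counts per library against 3139 to 6727 for *Npc1*.

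Per kilobase of exon, *Insig1* was the most abundant message of the members in both groups, with mean levels of 53.0 CPM per kb in control and 138 CPM per kb in TRCs. In the controls it was followed by *Srebf2* at 26.5, *Srebf1* at 20.8, *Insig2* at 18.8, *Scap* at 16.4, *Mylip* at 12.6, *Npc1* at 8.25 and *Abca1* at 1.60 CPM per kb. Within each control library *Srebf2* stood above *Srebf1*, with log2 ratios of *Srebf1* to *Srebf2* per length of −0.34 and −0.36. *Insig2* lay above *Srebf2*, *Srebf1* and *Scap* in control replicate 1 and below all of them in control replicate 3. The place of *Insig2* in the control order is therefore within the spread. In the TRCs *Insig2* stood above *Srebf1*, with mean levels of 42.3 and 22.1 CPM per kb and no overlap between their TRC libraries.

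The comparison of TRCs with each control library separately gave different sizes for the same genes. Against control replicate 1, the log2 ratio of *Insig1* was 1.97 in TRC replicate 1 and 2.14 in TRC replicate 3. Against control replicate 3 it was 0.82 and 0.998 in the same order. *Srebf2* showed the same pattern, with log2 ratios of 1.01 and 1.45 against control replicate 1 and 0.46 and 0.90 against control replicate 3. *Insig2* showed the opposite, with 0.66 and 1.05 against control replicate 1 and 1.34 and 1.73 against control replicate 3. All 4 of these ratios were above 0 for *Insig1*, *Insig2*, *Srebf2* and *Npc1*, and not for the other 4 tested members.

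**Figure D2:**
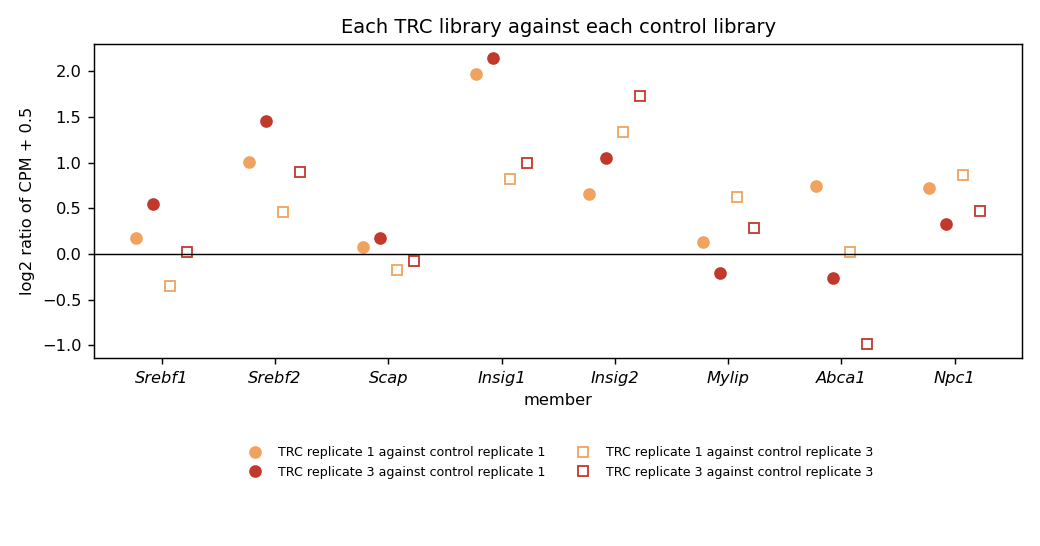
Log2 ratio of CPM + 0.5 of each TRC library to control replicate 1 (filled circles) and to control replicate 3 (open squares) for the 8 tested members. The ratios of Insig1 are higher against control replicate 1 and those of Insig2 are higher against control replicate 3, and all 4 ratios lie above 0 for both.

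The genes of cholesterol synthesis, the main known targets of SREBP-2, mostly differed between the control libraries in the same direction as *Srebf2* and *Insig1*. In control replicate 3, 19 of 20 synthesis genes were higher than in control replicate 1, where 5791 of all 11483 genes tested were. The median log2 difference was 0.60 for the synthesis genes and 0.0042 for all genes tested. Against control replicate 1, the median of the synthesis genes was 1.25 for TRC replicate 1 and 1.40 for TRC replicate 3. Against control replicate 3 it was 0.57 and 0.66. All ratios to control replicate 1 share that single library. The list was chosen with earlier results of these data known, so its shares are not a test. By the exact test 12 of the 20 were called higher in TRCs and 0 lower, against 8.81% and 7.05% of all genes tested. The median log2 difference of the 20 genes was 0.93. Without control replicate 1 and without TRC replicate 3 the calls were 7 and 6.

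**Figure D3:**
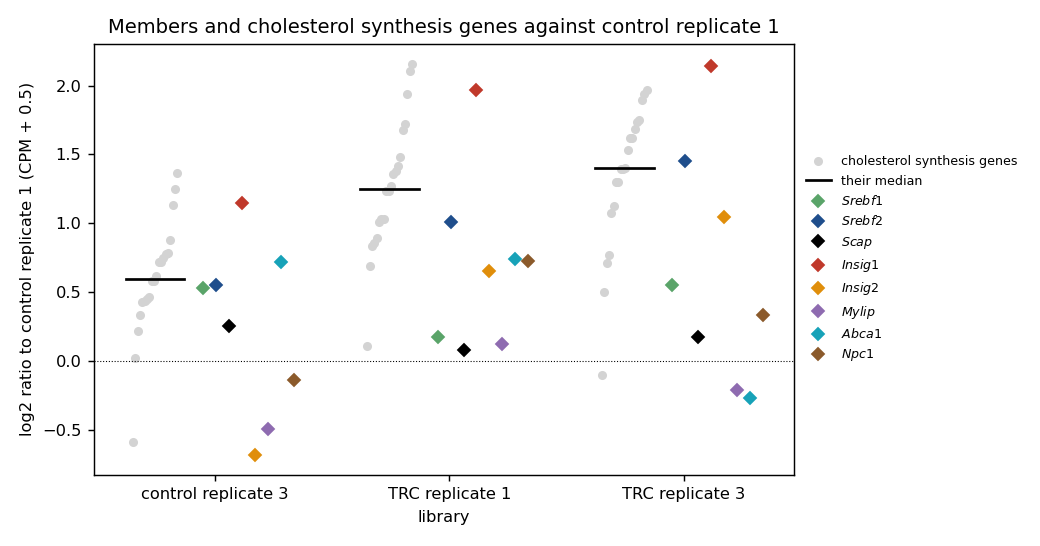
Log2 ratio to control replicate 1 (CPM + 0.5) in the other 3 libraries for the 20 cholesterol synthesis genes (grey, with the median as a line) and the 8 tested members (diamonds). In control replicate 3 the median of the synthesis genes is 0.60, and Insig1 is at 1.15 and Insig2 at −0.68.

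Among the synthesis genes, *Hmgcs1*, which makes HMG-CoA, rose from 110 and 182 CPM in control replicates 1 and 3 to 476 and 412 CPM in TRC replicates 1 and 3 (log2 fold change 1.60, SE 0.27, FDR = 6.5e-07 by the exact test). *Fdft1*, *Sqle* and *Msmo1* had log2 fold changes of 1.62, 1.36 and 1.32, and these 4 genes kept their calls without each library in turn.

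For uptake of LDL, 3 of 10 genes were called higher and 0 lower, with a median log2 fold change of 0.47. Of all genes tested, 8.81% were called higher and 7.05% lower, and the median was 0.0034. The genes called included *Scarb1*, the HDL receptor (log2 fold change 1.16, SE 0.27, FDR = 0.000466 by the exact test), and *Vldlr*, a lipoprotein receptor, with 16.8 and 1.76 CPM in control replicates 1 and 3 and 29.0 and 43.5 CPM in the TRCs. The log2 ratio of control replicate 3 to control replicate 1 was −2.93 for *Vldlr*, and its adjusted p by DESeq2 with n = 2 per group was 0.328. Without TRC replicate 3 none of the 3 was called, with an FDR of 0.0636 for *Scarb1* and 0.244 for *Vldlr* by the exact test, and *Vldlr* also had 0.0745 without TRC replicate 1.

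Of 14 partners of SREBP processing and of the INSIG proteins, 1 was called higher and 3 lower. Over all genes tested these shares were 8.81% and 7.05%. The median log2 fold change of the partners was 0.11. *Rnf145*, an INSIG-linked ubiquitin ligase, rose from 65.7 and 89.0 CPM to 140 and 153 CPM (log2 fold change 0.92, SE 0.23, FDR = 0.00222 by the exact test). Its FDR was 0.0562 without control replicate 1 and 0.0602 without TRC replicate 3. *Ubxn8*, an ER protein that binds the p97 ATPase, *Spring1*, needed for SREBP cleavage, and *Erlin1*, an ER membrane protein that restrains SREBP activation, had log2 fold changes of −0.95, −0.76 and −0.69. None of these 3 kept its call with the replicate block, where the FDR was 0.0572, 0.0767 and 0.0679 in the same order, and without each library in turn *Ubxn8* kept it only without control replicate 1, and *Spring1* and *Erlin1* in no fit. The protease genes *Mbtps1* and *Mbtps2* were not called, with log2 fold changes of 0.38 (SE 0.20) and 0.12 (SE 0.23).

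In sterol transport within the cell, 2 of 14 genes were called higher and 0 lower, against 8.81% and 7.05% of all genes tested. The median of the 14 genes was 0.24. *Stard4*, a carrier that moves cholesterol between membranes, rose from 34.0 and 67.7 CPM to 117 and 144 CPM (log2 fold change 1.36, SE 0.32, FDR = 0.000275 by the exact test), and kept its call without each library in turn. *Gramd1a*, which takes cholesterol from the plasma membrane to the ER, had a log2 fold change of 0.94, and its relatives *Gramd1c*, with 0.80 (SE 0.44), and *Gramd1b*, with −0.37 (SE 0.22), were not called. *Npc2*, the soluble partner of NPC1, had 207 and 235 CPM in the controls and 305 and 312 CPM in the TRCs (log2 fold change 0.48, SE 0.19, FDR = 0.138). The FDR of *Gramd1a* was 0.147 without TRC replicate 1 and 0.0609 without control replicate 3.

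Of the 10 tested genes of the LXR and efflux list, 4 were called higher and 0 lower. Over all genes tested these shares were 8.81% and 7.05%. The median over the 10 was 0.19. *Nr1h2*, which encodes LXR-beta, rose from 49.8 and 42.3 CPM to 74.2 and 75.7 CPM (log2 fold change 0.70, SE 0.21, FDR = 0.0165 by the exact test), while *Nr1h3*, which encodes LXR-alpha, had 1 to 8 counts per library and was not tested. *Apoe*, *Smpdl3a* and *Abca7* had log2 fold changes of 0.72, 0.75 and 0.71. With the replicate block none of the 4 was called, and the quasi-likelihood test without it called 1, *Nr1h2*. Without control replicate 3, TRC replicate 1 or TRC replicate 3 none of the 4 was called either. Of the LXR targets named above, *Abca1* and *Mylip* did not pass the test, and *Abcg1* was near 0.

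Of 9 genes of sterol esters and oxysterols, 3 were tested and 1 was called higher, where 8.81% of all genes tested were. *Soat1*, which esterifies cholesterol for storage, had 103 and 89.0 CPM in the controls and 134 and 202 CPM in the TRCs (log2 fold change 0.80, SE 0.26, FDR = 0.0176 by the exact test), with FDR = 0.0645 by the quasi-likelihood test, 0.209 without control replicate 3 and 0.399 without TRC replicate 3. *Nceh1* and *Hsd3b7*, the others tested, were not called. *Ch25h*, which makes the oxysterol 25-hydroxycholesterol, had 0 counts in all 4 libraries. Fatty acid synthesis is the arm known for SREBP-1c. Of its 12 listed genes, 4 were called higher and 0 lower, against 8.81% and 7.05% of all genes tested. The median of the 12 genes was 0.34. The called genes were *Acss2*, *Scd1*, *Me1* and *Scd2*, with log2 fold changes of 1.30, 1.11, 0.82 and 0.73. *Fasn* and *Acaca*, the core of the pathway, had log2 fold changes of −0.35 and −0.26 and were not called. *Me1* and *Scd2* were not called without control replicate 1, without TRC replicate 1 or without TRC replicate 3, which left 2 genes called higher each time, and *Scd2* was not called by the quasi-likelihood test with or without the replicate block. Without control replicate 1 *Fasn* was called lower (FDR = 0.0403 by the exact test). *Fasn* had 470 and 931 CPM in control replicates 1 and 3 and 580 and 515 CPM in the TRCs.

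**Figure D4:**
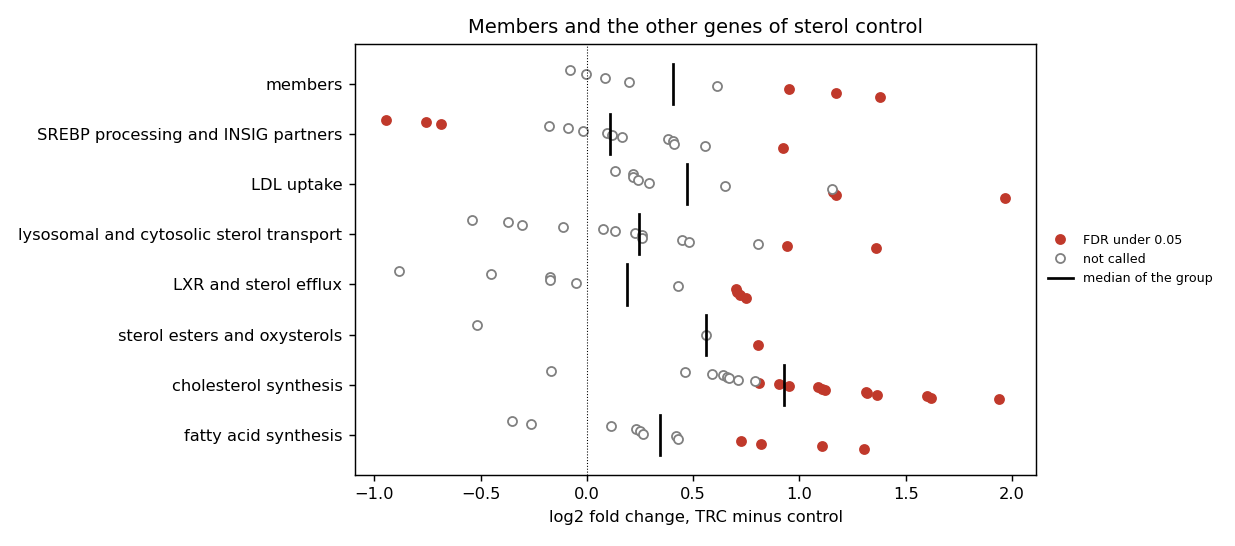
Log2 fold change (TRC minus control) of the 8 tested members and of the tested genes of 7 groups of sterol and lipid genes, with a point for each gene, filled where the exact test's FDR was under 0.05, and a line at the group median. The cholesterol synthesis group has the highest median, 0.93, and the 3 filled members lie at 0.95, 1.17 and 1.38.

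By Euclidean distance of log2 CPM centred on each gene's mean over the 4 libraries, the tested genes nearest to *Insig1* included *Stard4* and *Etv1* (distances 0.154 and 0.224). The nearest to *Srebf2* were *Fdps*, *Gm12286* and *Mknk2* (0.0705, 0.105 and 0.12). The nearest to *Abca1* were *Cbs*, *Hmcn1* and *Gjc3* (0.142, 0.173 and 0.195). These likenesses rest on 4 libraries and are a description.

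The libraries held 35948295 to 43511554 counts on genes, and alignments that were not unique and were not counted made up 15.2% to 25.2% of the total, highest in TRC replicate 3. The melanocyte lineage genes, all 7 of which were tested, summed to 15712 to 18915 CPM in the controls and 23969 to 26669 CPM in the TRCs. Leukocyte and macrophage markers, which matter because macrophages express *Abca1* and *Abcg1*, summed to 2.04 to 4.97 CPM in the controls and 1.71 to 2.09 CPM in the TRCs, and *Ptprc*, *Adgre1* and *Itgam* had 0 counts in all libraries. Fibroblast markers summed to 9.83 to 11.4 CPM in the controls and 3.10 to 5.65 CPM in the TRCs, and of the 3 endothelial markers *Cdh5* and *Kdr* had 0 counts. Of these lists, *Dct* among the melanocyte genes was called higher by the exact test (log2 fold change 1.08). Its mean was 5014 CPM in control and 10591 CPM in TRCs, and the other 6 melanocyte genes were not called. *Col1a2* among the fibroblast genes was called lower (−2.52), with means of 7.25 and 1.26 CPM in the same order. *Col1a1* and *Pdgfra* were not called, with log2 fold changes of −0.38 and 0.13, and *Dcn* and *Lum* had 0 to 4 counts per library. The part of such differences in the changes of *Srebf2*, *Insig1* and *Insig2* was not tested.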

How the data were processed

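RNA-seq was performed on 2 control and 2 TRC libraries. Libraries were stranded. The authors used Trimmomatic 0.35 (in single end mode) and then Tophat2 2.1.0 against GRCm38, and deposited raw counts per gene from htseq-count, without normalization. The mode and strand setting of the counting are not given in the sources used here. Totals for reads on no gene were removed, genes with less than 1 CPM in at least 3 samples were dropped, and TMM-normalized counts were compared with edgeR 4.0.16 (exact test, common and tagwise dispersions, prior count 0.125) under R 4.3.3, with p-values adjusted by Benjamini-Hochberg (all tested genes, FDR threshold 0.05). SE values come from DESeq2 1.42.0. Log2 ratios between libraries used CPM + 0.5. Exon lengths are unions of exons in GENCODE M21 (GRCm38), in which 37607 of 39179 identifiers had a symbol, and *Spring1* was matched through its RefSeq synonym. Scripts were tested on simulated data. The members and gene lists were chosen with earlier results of these data known. Named genes are all members, the up to 4 genes of each list with the smallest FDR, the direct partners *Mbtps1*, *Mbtps2*, *Nr1h2* and *Nr1h3*, and the 3 genes nearest to *Insig1*, *Srebf2* and *Abca1*. *Fasn*, *Acaca*, *Ch25h*, *Gramd1b*, *Dct*, *Col1a2*, *Col1a1*, *Pdgfra*, *Dcn* and *Lum* were named after their values were seen. The 3 promoter motifs and the microRNA were also chosen then. Genes called higher or lower in each setting, with other filters, scalings and tests, a replicate block and each library left out, were counted, for the lists as an alternative chosen after seeing the data. A lone library in a group was assumed to vary like the other group. Some genes that this rule selects are not reported here.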

Additional observations from a re-analysis of the deposited data

How the results depend on the processing

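The exact test called 1822 genes, edgeR's quasi-likelihood test called 1054 without and 785 with the replicate block, and the fits without 1 library called 773 to 1932. In those fits 1 to 3 members were called, and 1 (*Insig1*) without TRC replicate 3. The same-numbered libraries deviated together with r = 0.027 across genes, so the numbers 1 and 3 are shared names and not shown to pair the samples. With the replicate block, *Insig2* had a log2 fold change of 1.20 with FDR = 0.0572 and *Scap* of 0.00037. By the quasi-likelihood test without it *Srebf2* had 0.95 with FDR = 0.0518, by DESeq2 *Npc1* had 0.61 with an adjusted p of 0.0386 by its Wald test, and with the stricter filter *Scap* had 0.0018. Leave-one-out log2 fold changes ranged from −0.16 to 0.38 for *Srebf1*, 0.70 to 1.25 for *Srebf2*, −0.13 to 0.13 for *Scap*, 0.91 to 2.06 for *Insig1*, 0.87 to 1.56 for *Insig2*, −0.031 to 0.47 for *Mylip*, −0.71 to 0.34 for *Abca1* and 0.39 to 0.79 for *Npc1*. The *Srebf1* to *Srebf2* difference ranged from −0.89 to −0.83 and the *Insig2* to *Insig1* difference from −1.21 to 0.63. Of the 30 list genes called, 9 kept the call without each library in turn, 19 with the replicate block, 20 by the quasi-likelihood test without it and 29 by DESeq2. With the replicate block 0 SREBP processing genes were called lower and 0 LXR and efflux genes and 0 sterol ester genes higher, and without it the quasi-likelihood test called 1 and 0 of the last groups. Leaving out 1 library gave 0 to 1 higher and 0 to 1 lower calls for SREBP processing, 0 to 5 higher for LDL uptake, 1 to 2 for sterol transport, 0 to 3 higher and 0 to 1 lower for LXR and efflux, 0 to 1 higher and 0 to 1 lower for sterol esters, 6 to 17 higher for cholesterol synthesis, and 2 to 5 higher and 0 to 1 lower for fatty acid synthesis.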
